A study of Mus musculus with 4 samples.

Results

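The RNAs described here are 10 mouse long noncoding RNAs that act in the nucleus, come from imprinted loci or host small nucleolar RNAs: Malat1, Neat1, Meg3, Rian, Mirg, Miat, Kcnq1ot1, H19, Snhg11 and Gas5. They were chosen by name, and all 10 have a row among the 49997 gene rows of the count tables. Of the 10, 7 had at least 1 count in any library and 5 (Malat1, Neat1, Miat, Kcnq1ot1 and Gas5) passed the low-count filter, against 23768 and 9009 of all rows. The libraries came from wild-type iMOP cells, which are immortalized otic progenitors of the mouse, the precursors of inner ear neurons and hair cells. Proliferating cells were kept in DMEM/F12 with N21 supplement, carbenicillin and 20 ng/ml bFGF, a growth factor. Neurons derived from them were kept in Neurobasal medium with N21, L-glutamine and 1 µM K03861, which inhibits CDK2, a kinase of the cell cycle. Each group had 2 libraries of DNase-treated, ribosome-depleted total RNA, numbered 1 and 2, and separate cultures are not stated as their source, so p-values measure only how far these samples spread. All cells are of a single line, and the time in each medium is not given in the sources used here.

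Long noncoding RNAs are transcripts that do not encode proteins, and many of them work where they are made. Malat1 and Neat1 are neighbours on a chromosome and build or occupy nuclear bodies, Malat1 in the speckles where splicing factors gather and Neat1 as the scaffold of paraspeckles. Imprinted noncoding RNAs are made from the copy inherited from a single parent, and Kcnq1ot1, for example, silences protein-coding neighbours on the paternal copy. Libraries of total RNA capture these molecules whether or not they carry a poly(A) tail.

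The ends of Malat1 and of the long form of Neat1 show why capture without poly(A) selection matters for them. Neither of these ends is made by ordinary polyadenylation. An enzyme cuts in front of a small tRNA-like RNA, called mascRNA in the case of Malat1. The new end is protected by a fold of U-rich and A-rich stretches. In the longest GENCODE transcript of Malat1 (6983 bases, chromosome 19, 5795690 to 5802672 of mm10, minus strand), mascRNA takes up bases 6692 to 6749. The lines give the 90 bases before mascRNA, mascRNA itself, and the last 90 bases of the long form of Neat1 (20771 bases, chromosome 19, 5824708 to 5845478, minus strand), 5′ to 3′ as DNA letters. Capitals mark the last 11 bases of each 90-base stretch, which are the same in both. They close 9 of the 141767 annotated transcripts, with this Neat1 transcript counted among the 9. Other runs that occur in both stretches are not marked.
Malat1 end, chr19:5795982-5796071: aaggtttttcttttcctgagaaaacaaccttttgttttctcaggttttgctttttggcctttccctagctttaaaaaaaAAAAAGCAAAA
mascRNA, chr19:5795924-5795981: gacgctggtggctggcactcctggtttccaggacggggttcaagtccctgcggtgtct
Neat1 end, chr19:5824708-5824797: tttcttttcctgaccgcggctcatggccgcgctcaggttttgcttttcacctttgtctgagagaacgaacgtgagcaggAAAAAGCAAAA

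Miat, also called Gomafu, is a spliced nuclear RNA of neural cells known for repeats of the letters TACTAAC, which match the branch point bound by the splicing factor SF1. The annotated Miat transcript of 8758 bases (chromosome 5, minus strand) held 6 matches on its own strand. Of 1965 annotated transcripts within 20% of its length, itself included, 0.102% held at least as many and 17.9% held any. The longest transcripts of Malat1 and Neat1 held 0 and 1. The stretch with the densest matches lies in the last exon, with the 3 matches it holds in capitals.
Miat, chr5:112216743-112216812: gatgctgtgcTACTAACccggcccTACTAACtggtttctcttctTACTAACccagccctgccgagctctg

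Kcnq1ot1 and Meg3 start inside imprinted domains. The second annotated start of Gas5 has a short run of pyrimidines, a feature of genes whose RNAs are regulated with the translation machinery. The promoter windows of RefSeq (GRCm38) run from 250 bases before the annotated start to 50 after it and were given for 8 of the 10 RNAs. In the Kcnq1ot1 window, capitals mark CCAAT, searched on both strands with its reverse ATTGG. It occurred 3 times, and 3.37% of the 32851 windows held at least 3 matches. In the Meg3 window capitals mark CG, the letters that DNA methylation acts on, which occurred 13 times against a median of 7 in all windows, with 37.9% of windows holding at least as many. The Gas5 stretch shows the last 110 bases of the window of the second annotated start, with the letters CTTTC at that start in capitals. The first annotated start of Gas5 is not shown. Of all windows, 0.137% held CTTTC at the same place. The letters were read from the Gas5 window itself, so this share does not say how common pyrimidine runs are at starts. These matches are descriptions of sequence and not measured sites.
Kcnq1ot1, chr7:143296498-143296797, minus strand: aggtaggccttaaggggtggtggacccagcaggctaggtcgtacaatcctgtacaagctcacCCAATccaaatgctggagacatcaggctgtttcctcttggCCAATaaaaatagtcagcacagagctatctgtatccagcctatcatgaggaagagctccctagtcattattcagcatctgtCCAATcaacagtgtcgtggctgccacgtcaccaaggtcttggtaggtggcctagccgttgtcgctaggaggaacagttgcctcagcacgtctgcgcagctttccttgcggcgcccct
Meg3, chr12:109540746-109541045, plus strand: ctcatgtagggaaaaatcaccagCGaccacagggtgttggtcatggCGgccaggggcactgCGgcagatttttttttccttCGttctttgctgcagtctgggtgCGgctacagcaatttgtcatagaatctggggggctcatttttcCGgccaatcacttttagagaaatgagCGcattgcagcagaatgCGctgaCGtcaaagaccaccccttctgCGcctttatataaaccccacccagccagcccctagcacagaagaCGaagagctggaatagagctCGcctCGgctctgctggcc
Gas5, chr1:161035106-161035215, plus strand: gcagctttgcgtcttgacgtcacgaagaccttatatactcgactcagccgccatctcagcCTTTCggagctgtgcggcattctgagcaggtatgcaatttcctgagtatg

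The libraries held 3150354 to 32913243 counts, of which 7 ribosomal RNA and rRNA-like genes took 88.2% to 98.1%. With those set aside, 292302 and 614465 counts remained in proliferating 1 and 2 and 3241915 and 617872 in neuron 1 and 2. Levels are given as scaled CPM, the share of these remaining counts (CPM) after TMM scaling, which evens out differences in composition between libraries. The libraries differed by number as well as by group: the structural RNAs Rn7sk, Rpph1 and Rmrp took 4.78% and 2.37% of what remained in proliferating 1 and neuron 1, against 0.405% and 0.352% in proliferating 2 and neuron 2, and mitochondrial messenger RNAs took 2.35% and 2.53% against 10.6% and 14.6%. The group labels were also checked against markers. All 7 dividing-cell markers were higher in the neuron library within both numbers, as were 27.7% of all tested genes. Their summed levels were 218 and 556 scaled CPM in proliferating 1 and 2 against 1800 and 4280 in neuron 1 and 2. Of 7 tested neuron markers, 6 were lower within both numbers, as were 27% of all tested genes. Summed levels of the neuron markers were 2500 and 2860 against 1470 and 1520. Map2 alone made up 1060 and 1450 against 485 and 1020 of these sums. Dcx, the exception among the tested ones, was at 0.57 in log2 ratio within number 1 and -0.31 within number 2. Of the untested ones, Rbfox3 was higher within both numbers, at 13 and 3.67 scaled CPM against 46.8 and 6.22. Syt1 was lower within both, and Nefl and Nefm were higher within number 1 and lower within number 2. As sets, the dividing-cell and neuron markers run against the labels. Otic progenitor markers were lower in the neuron group when summed, at 3090 and 8490 against 2160 and 1990 scaled CPM. Vim alone made up 2060 and 6930 against 1300 and 1250 of these sums. Of the 4 tested progenitor markers, Sox2 and Vim were lower within both numbers. Nes and Jag1 were at 0.08 and 0.1 in log2 ratio within number 1 and lower within number 2. Pax2, Pax8, Gata3 and Isl1 were not tested and held at most 2 counts in any library. Whether labels were crossed or the cells had not become neurons was not tested, so "neuron" and "proliferating" stand below for libraries so labelled, and every direction given depends on those labels. The replicate number was also used as a factor in the edgeR model described below. In that fit 4 dividing-cell markers, Mki67, Top2a, Bub1 and Cenpf, passed as higher in the neuron group. The neuron marker Stmn2 passed as lower, at -3.59 in log2 units (adjusted p = 0.00164 in edgeR). Of all tested genes, 0.644% passed as higher and 0.322% as lower. Glial markers moved in opposite directions in the same fit. Aqp4 was higher in the neuron group by 2.80 in log2 units (adjusted p = 0.0472 in edgeR). Olig1 and Olig2 were lower, at -2.74 (adjusted p = 0.0161) and -3.47 (adjusted p = 9e-04). Their summed levels were 435 to 745 scaled CPM in the proliferating group and 220 to 390 in the neuron group, and 0 of 5 immune markers passed the low-count filter. Whether cell makeup takes part in the differences below was not tested, and in bulk samples fewer cells of a type and less RNA per cell cannot be told apart.

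The group comparison was made with edgeR's quasi-likelihood test on all 9009 genes that passed the filter, with Benjamini-Hochberg adjustment and a threshold of 0.05. It called 0 of the 5 tested long noncoding RNAs, against 0% of all tested genes, and 97 genes had an unadjusted p under 0.05. DESeq2 also called 0 genes, with 190 under that unadjusted p. When the replicate number was added to the edgeR model as a factor, 0.966% of genes were called, with 0.644% higher in the neuron group and 0.322% lower. Of the 5 RNAs, 1 was then called, Miat, which was lower. That fit left 1 residual degree of freedom, against 2 with group alone. Its p-values therefore rest largely on a spread estimated across genes. Within each number, the neuron and proliferating libraries were also set side by side, with an exact 95% interval for counting error alone and no test, since each side is a single library.

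Malat1, the most abundant of the 10, ranked between 4th and 10th by count among all remaining genes of each library. It had 2767 and 3618 counts in proliferating 1 and 2 against 14904 and 8106 in neuron 1 and 2, or 9002, 6635, 3966 and 16800 scaled CPM in the same order. Neuron 2 was the highest library and neuron 1 the lowest, so the groups overlapped. As a share of the remaining counts this was 0.947% (95% Wilson interval 0.912 to 0.982), 0.589% (0.57 to 0.608), 0.46% (0.452 to 0.467) and 1.31% (1.28 to 1.34). The group means were 7820 ± 1670 scaled CPM in proliferating cells and 10400 ± 9080 in neurons (SD, n = 2 each), with a log2 fold change of 0.41 (SE 1.43, adjusted p = 1 in edgeR). Within the libraries numbered 1 the neuron library had 0.441 times the proliferating level (interval 0.423 to 0.459), and within those numbered 2 it had 2.53 times that level (2.43 to 2.63). The difference between the numbers was thus larger than counting error, and it ran in opposite directions. Without neuron 2 the log2 fold change was -0.98. The row of mascRNA, which lies inside Malat1, held 0 counts in every library, and a read that falls in both rows could have been assigned to either or to neither.

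Neat1, the paraspeckle scaffold, had 193 and 40 counts in proliferating 1 and 2 against 494 and 104 in neuron 1 and 2. Its levels were 628 and 73.4 scaled CPM in proliferating 1 and 2 and 132 and 216 in neuron 1 and 2. Proliferating 1 stood above the other libraries, and the neuron libraries lay between the proliferating ones. The log2 fold change was -1.01 (SE 1.15, adjusted p = 1 in edgeR). The neuron library was at 0.209 times the proliferating level within number 1 (interval 0.177 to 0.249) and at 2.94 times within number 2 (2.02 to 4.34), so Neat1 had the same pair of directions as Malat1. Without proliferating 1 the fold change was 1.25 on the log2 scale. The short and the long form of Neat1 share a row and cannot be told apart here.

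RNA levels of genes that encode proteins of the bodies that Malat1 and Neat1 occupy were also compared, and protein was not measured. All 17 paraspeckle protein genes of the list were tested and 0 passed the threshold, with a median log2 fold change of -0.05 beside -0.03 over all tested genes. Sfpq, a core paraspeckle protein that binds Neat1, had 501 and 1770 scaled CPM in proliferating 1 and 2 against 632 and 1780 in neuron 1 and 2, with a log2 fold change of 0.08 (SE 1.19). Hnrnpk, an RNA-binding protein, was at -0.39 (SE 1.15). Of 22 genes for speckle proteins and splicing factors, 0 passed and the median was 0.07. The speckle scaffold protein gene Srrm2 was at -0.19 (SE 1.11), and Qk, a splicing factor of neural cells and glia, was at 0.01 (SE 1.15).

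Miat had the largest difference among the 5 tested RNAs, and it rested on proliferating 1. Its counts were 137 and 8 in proliferating 1 and 2 against 91 and 5 in neuron 1 and 2, which gave 446, 14.7, 24.2 and 10.4 scaled CPM. Proliferating 1 stood far above the rest, while proliferating 2 lay between the neuron libraries. The log2 fold change was -3.67 (SE 1.41, unadjusted p = 0.0227, adjusted p = 1 in edgeR). Within number 1 the neuron library was at 0.0543 times the proliferating level (interval 0.0412 to 0.0713). Within number 2 the ratio was 0.706, with an interval of 0.182 to 2.45 from 5 and 8 counts, so no difference was detectable there at this depth. With the replicate number as a factor, Miat fell by 3.04 in log2 units (SE 0.80, adjusted p = 0.0311 in edgeR), and that call ended with DESeq2 size factors (adjusted p = 0.111). Without proliferating 1 the fold change with group alone was 0.29.

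Kcnq1ot1 was the only 1 of the 5 tested RNAs whose level was higher in the neuron library within both numbers, as were 27.7% of all tested genes. It is a single unspliced RNA of 83437 bases in the authors' gene model, transcribed against the potassium channel gene Kcnq1 (chromosome 7, 143203458 to 143296549 in GENCODE, minus strand). Its counts were 64 and 232 in proliferating 1 and 2 against 1908 and 1393 in neuron 1 and 2, or 208, 426, 508 and 2887 scaled CPM. Both neuron libraries lay above both proliferating libraries, as was so for 9.41% of tested genes (the reverse held for 8.5%), though neuron 1 exceeded proliferating 2 by little. The means were 317 ± 154 and 1700 ± 1680 scaled CPM (SD, n = 2 each), and the log2 fold change of 2.42 did not pass the test (SE 1.27, unadjusted p = 0.08, adjusted p = 1 in edgeR). The ratio was 2.44 within number 1 (interval 1.90 to 3.18) and 6.79 within number 2 (5.90 to 7.83), with both intervals above equality. With the replicate number as a factor it was 2.04 in log2 units (SE 0.63, adjusted p = 0.0913 in edgeR). Without neuron 2 the log2 fold change with group alone was 0.66. The sources used here do not give the strand setting of the counting, so reads from Kcnq1 could count for Kcnq1ot1 where exons overlap, and the Kcnq1 row itself held 1 count in all, in neuron 1.

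**Figure D1:**
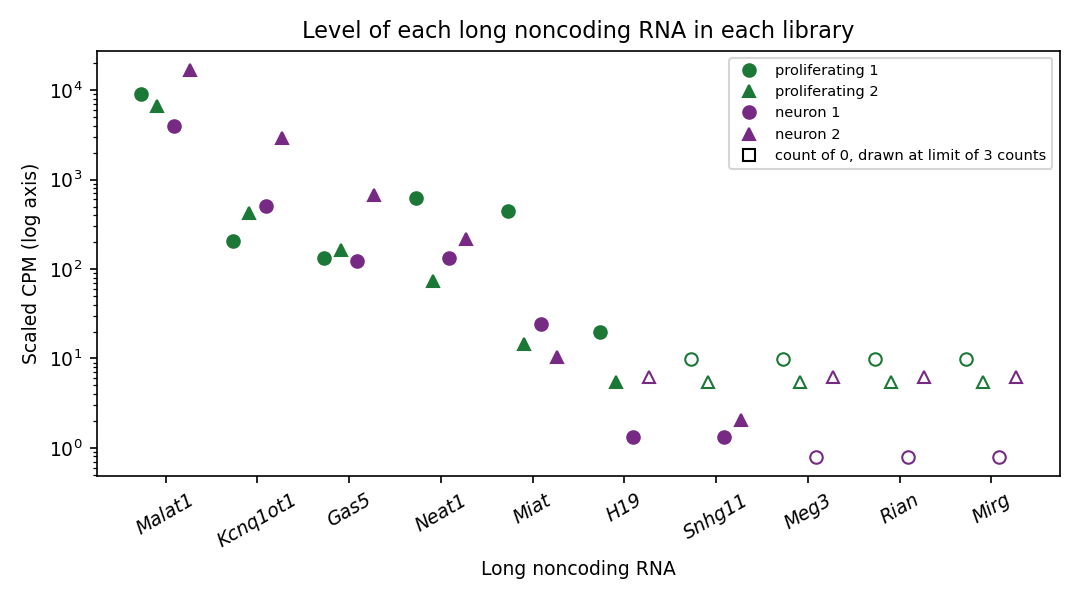
Level of each of the 10 long noncoding RNAs (x axis) in scaled CPM on a log axis, with 1 point per library; open symbols mark a count of 0 and are drawn at the level of 3 counts. Malat1 lies above the other RNAs in every library, Kcnq1ot1 is highest in neuron 2, and Meg3, Rian and Mirg are at 0 throughout.

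Of the protein-coding genes near Kcnq1ot1, some were nearly unmeasured and others were not. Cdkn1c, a cell cycle inhibitor, had 1 count, in proliferating 2. Phlda2, a growth regulator best known from placenta, had 1 count in proliferating 1 and 6 in neuron 1. Slc22a18, a membrane transporter gene, had 3 counts, in neuron 1. Depth was too low for a fold change of these 3 genes. In the same region, Tssc4 had 15 and 0 counts in proliferating 1 and 2 against 181 and 1 in neuron 1 and 2, with a log2 fold change of 0.15 (SE 1.71). Nap1l4, which encodes a histone chaperone, had 33 and 74 against 577 and 53 counts, with a log2 fold change of 0.12 (SE 0.94). Neither passed the test (adjusted p = 1 in edgeR). Across the wider list of 28 imprinted protein-coding genes, all 28 had at least 1 count and 14 were tested. Of those, 0 passed the threshold, and the median log2 fold change was 0.09 beside -0.03 over all tested genes. Gnas, which encodes a G protein subunit, was at -1.05 (SE 1.10) and Peg10, a gene derived from a retrotransposon, at -1.42 (SE 1.11). Among other imprinted noncoding RNAs, 3 were tested and 0 passed, with a median log2 fold change of 1.03. Airn, which silences Igf2r on the paternal copy, had 16.3 and 12.8 scaled CPM in proliferating 1 and 2 against 13 and 47.7 in neuron 1 and 2. Peg13, a brain-expressed imprinted RNA, was at -0.37 (SE 1.33). Snhg14 was at 2.29 (SE 1.61), from 0 and 10 counts in proliferating 1 and 2 against 23 and 45 in neuron 1 and 2.

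H19, an imprinted RNA of growing embryonic tissue that also gives rise to miR-675, was close to the limit of detection. It had 6 and 3 counts in proliferating 1 and 2 against 5 and 0 in neuron 1 and 2, or 19.5, 5.50, 1.33 and 0 scaled CPM. A count of 0 in neuron 2 allows up to 6.22 scaled CPM at 3 counts, which is above the level in proliferating 2, so no difference was detectable within number 2 at this depth. Within number 1 the ratio was 0.0682, with an interval of 0.0165 to 0.268 from 5 and 6 counts that lies below equality. H19 did not pass the low-count filter and was not tested between the groups. The row of the hosted miR-675 held 0 counts, and its reciprocally imprinted neighbour Igf2, a growth factor gene, held 0, 1, 2 and 0 counts in the same library order.

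Meg3, Rian and Mirg, the noncoding RNAs made from the maternal copy of the Dlk1 to Dio3 domain, had 0 counts in all 4 libraries. Meg3 is known in many neural tissues as an abundant nuclear RNA, Rian hosts box C/D small nucleolar RNAs, and Mirg hosts a large cluster of miRNAs. In neuron 1, the library with the most remaining counts, 0 counts allow a level of up to 0.798 scaled CPM, against 3966 for Malat1 in the same library. The limits were 9.76 and 5.50 scaled CPM in proliferating 1 and 2 and 6.22 in neuron 2. Meg3 lies on chromosome 12 at 109541001 to 109571726, Rian at 109603940 to 109661716 and Mirg at 109729764 to 109749460, all on the plus strand in mm10.

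The whole domain was at or next to 0, not only these 3 rows. From the start of Dlk1 (109452485) to the end of Dio3 (110281097), a span of 828.6 kb, 103 rows had a RefSeq position, and 1 of them had a count: the pseudogene Gm3379, with 1 count in neuron 1. The rows held 61 miRNAs, 19 small nucleolar RNAs, 16 long noncoding RNAs and 3 protein-coding genes, all at 0. Outside the domain, 17.4% of 1167 miRNA rows, 24.8% of 1321 small nucleolar RNA rows, 36.9% of 12715 long noncoding RNA rows and 68.1% of 21893 protein-coding rows had at least 1 count. The protein-coding rows at 0 were Dlk1, a growth regulator, Rtl1, a retrotransposon-derived gene, and Dio3, which inactivates thyroid hormone. All 3 are known to be expressed mainly from the paternal copy, so RNAs known from either parental copy were at 0. The nearest protein-coding rows on either side did have counts: Begain held 1, 0, 16 and 0 and Wdr25 held 5, 0, 46 and 0 on the Dlk1 side, and Ppp2r5c held 26, 89, 398 and 120 on the Dio3 side, for proliferating 1 and 2 and neuron 1 and 2.

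**Figure D2:**
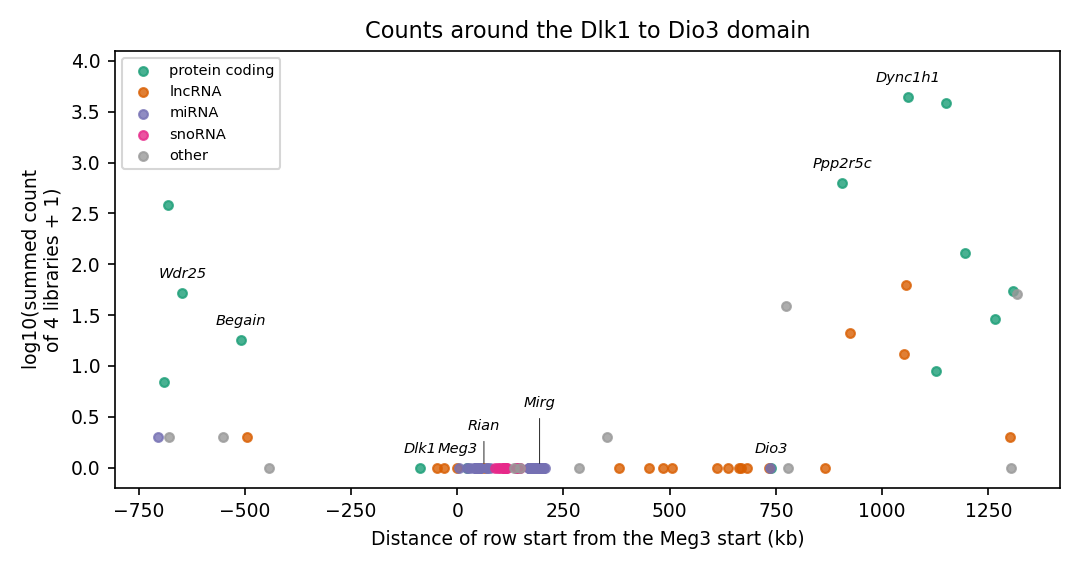
Summed count of all 4 libraries per row, as log10(count + 1), against the distance of the row's start from the Meg3 start in kb, coloured by kind of gene. The rows between Dlk1 and Dio3 lie at 0 apart from 1 pseudogene with 1 count, while protein-coding rows beyond both ends hold counts.

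Gas5, which hosts small nucleolar RNAs in its introns and is known to accumulate in growth-arrested cells, was highest in neuron 2. Its counts were 41 and 90 in proliferating 1 and 2 against 461 and 323 in neuron 1 and 2, or 133, 165, 123 and 670 scaled CPM. The other 3 libraries lay close together and neuron 1 was the lowest, so the groups overlapped. The means were 149 ± 22.4 and 396 ± 387 scaled CPM (SD, n = 2 each), and the log2 fold change was 1.40 (SE 1.10, adjusted p = 1 in edgeR). Within number 1 the ratio was 0.920, with an interval of 0.667 to 1.30 that includes equality, and within number 2 it was 4.06 (3.20 to 5.18). Without neuron 2 the log2 fold change was -0.30. Gas5 lies on chromosome 1 at 161034422 to 161038539 on the plus strand, and it overlaps the gene Zbtb37 in RefSeq, so reads there are uncertain.

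The small nucleolar RNAs inside Gas5 did not stand out in neuron 2. Of 8 such rows, 5 had at least 10 counts in any library, and together they held 6 and 42 counts in proliferating 1 and 2 against 191 and 33 in neuron 1 and 2. That is 19.5, 77.0, 50.8 and 68.4 scaled CPM. Per 100 counts of Gas5 there were 14.6 and 46.7 counts of these rows in proliferating 1 and 2 against 41.4 and 10.2 in neuron 1 and 2. The order of the libraries therefore differed between Gas5 and the RNAs in its introns, a difference that was not tested. Proliferating 2 and neuron 2 rest on 42 and 33 counts, so the order of these 2 libraries is uncertain. A single row, LOC115487638, held 34 of the 42. The 5 rows carry the RefSeq names LOC115487643, LOC115487678, LOC115487638, LOC115487644 and LOC115487677, and LOC115487643 was the most counted of them in neuron 1, with 57 counts.

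Other host genes of small nucleolar RNAs did not pass the test either. Of 18 in the list, 11 were tested and 0 passed, with a median log2 fold change of 0.33. Snhg5 was at 0.66 (SE 1.04) and Snhg1 at 0.35 (SE 1.15). Gas5 RNA is a known substrate of nonsense-mediated decay, which removes spliced RNAs with short reading frames. Of 10 genes of that decay pathway, all were tested and 0 passed, with a median of 0.30. The kinase gene Smg1 was at 0.90 (SE 1.02). Snhg11, a neuron-enriched host gene, had 0 counts in proliferating 1 and 2 against 5 and 1 in neuron 1 and 2. The limits of 9.76 and 5.50 scaled CPM that the 0 counts allow exceed the 1.33 and 2.07 scaled CPM in the neuron libraries, so a difference was not detectable at this depth.

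Compared per length, as scaled CPM per kilobase of the authors' gene model, Malat1 and Gas5 were the first and the second of the 10 RNAs in every library. Malat1 had 1290 and 950 in proliferating 1 and 2 against 568 and 2410 in neuron 1 and 2, and Gas5 had 215, 266, 198 and 1080. Their ranges over the libraries overlapped, while within each library Malat1 was the higher. Below them the order varied from library to library and neighbours did not differ beyond their spread. Neat1 ranged from 3.53 to 30.2, Miat from 1.18 to 50.9 and Kcnq1ot1 from 2.50 to 34.6. Kcnq1ot1 was second to Malat1 in mean scaled CPM of the neuron libraries, but per kilobase its mean of 20.3 ± 20.2 there lay below the 639 ± 624 of Gas5 (SD, n = 2 each).

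**Figure D3:**
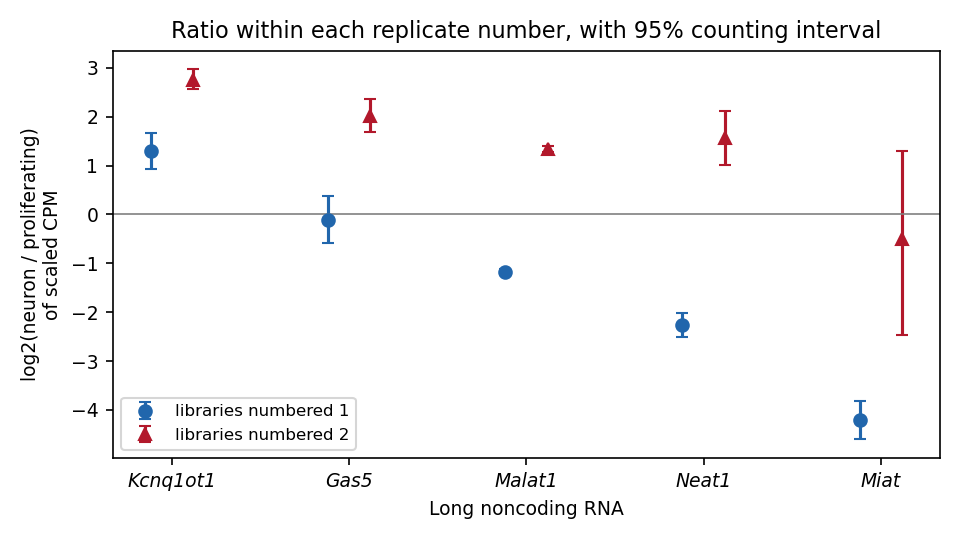
Log2 ratio of neuron to proliferating scaled CPM (y axis) for the 5 tested long noncoding RNAs, within the libraries numbered 1 (circles) and 2 (triangles), with 95% intervals for counting error alone. Kcnq1ot1 is above 0 in both pairs, at 1.29 and 2.76, while Malat1 and Neat1 have opposite signs.

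Read across the 5 tested RNAs, the pairs gave different pictures. Within number 2, 4 RNAs were higher in the neuron library and Miat was at -0.50 on the log2 scale. Within number 1, Kcnq1ot1 alone was higher. The sign was the same in both pairs for 54.8% of all tested genes, and the medians were 0.03 and -0.03. Among all tested genes the ratio of Malat1 stood at the 7.12 percentile within number 1 and at the 86.2 percentile within number 2, and that of Neat1 at 0.644 and 89.1. Kcnq1ot1 was at 90.7 and 98.3, Gas5 at 43.0 and 94.7, and Miat at 0.0333 and 36.0.

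**Figure D4:**
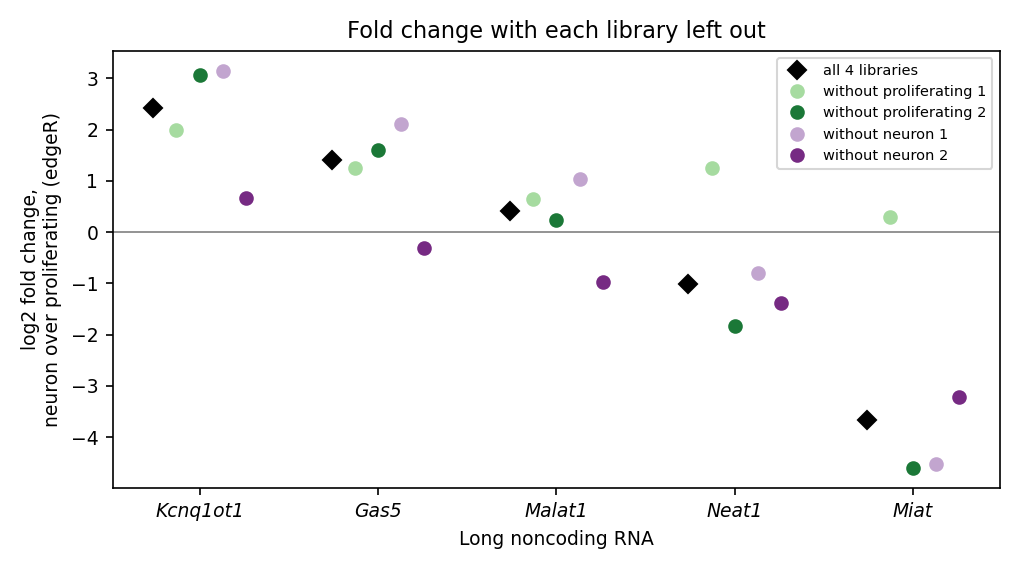
Log2 fold change, neuron over proliferating, from edgeR with group alone (y axis) for the 5 tested long noncoding RNAs with all 4 libraries (diamonds) and with each library left out (circles). Kcnq1ot1 stays above 0 in every case, between 0.66 and 3.15, while Malat1 and Gas5 cross 0 without neuron 2 and Neat1 and Miat cross 0 without proliferating 1.

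Further long noncoding RNAs outside the imprinted and host gene groups were taken from a list of 18. Like the other lists, it was chosen with earlier results of these data known. Of the 9 tested, 0 passed with group alone, and the median log2 fold change was 0.85 beside -0.03 over all tested genes. The median ratio was 0.03 on the log2 scale within number 1 and 1.18 within number 2, so the median was raised mainly within number 2. Of the 9, 5 were higher in the neuron library within both numbers, against 27.7% of all tested genes. Another 2 were lower within both, against 27%. Tug1, a widely expressed nuclear and cytoplasmic RNA, was at 0.93 (SE 1.00), and Firre, an X-linked RNA of nuclear organisation, at 0.85 (SE 0.99). Within number 1 their log2 ratios were 0.03 and -0.06, and within number 2 they were 1.53 and 1.84. With the replicate number as a factor, 1 of the 9 rose, beside 0.644% of all tested genes. That was Dlx6os1, the antisense RNA of the Dlx5 and Dlx6 homeobox locus, with 5 and 0 counts in proliferating 1 and 2 against 386 and 52 in neuron 1 and 2. It rose by 4.12 in log2 units in that fit (SE 0.86, adjusted p = 0.00196 in edgeR), a value that depends on how a count of 0 is treated. A list of small structural RNAs had a median of -0.95 over 9 tested, with 0 passing. Of the 9, 6 were lower within both numbers, against 27% of all tested genes. Rn7sk, which holds back transcription elongation, was at -0.95 (SE 1.51) and Rmrp, an RNA of ribosomal RNA processing, at -0.96 (SE 1.59).

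Genes with the most similar pattern were sought over the 4 libraries, as the smallest Euclidean distance of log2 CPM after subtracting each gene's mean, among 7510 candidate genes. For Malat1 these were Rab30, Ccpg1 and Prcp, at distances of 0.165, 0.177 and 0.234. For Gas5 they were Tex9, Luc7l2 and Zfp292, at 0.0532, 0.114 and 0.119. With 4 libraries and so many candidates, close matches are a description only. Meg3, at 0 throughout, has no pattern to match.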

How the data were processed

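Total RNA from 4 iMOP libraries was treated with DNase, depleted of ribosomal RNA and made into stranded libraries, per the labels' protocols. Per the submitters' processing notes, HISAT2, SAMtools, featureCounts and DESeq2 were used with mm10; versions, annotation and strand setting are not given in the sources used here. The authors deposited raw counts per gene and RPKM values per library. RPKM served only for gene lengths: count, RPKM and library total gave 1 length, within a relative tolerance of 0.001, for 10924 of 10924 genes counted in all libraries.

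Counts of 7 rRNA and rRNA-like genes (mt-Rnr2, mt-Rnr1, Lars2, Rn18s-rs5, Mir6236, AY036118 and Gm15564) were set aside. The test was run in edgeR 4.0.16 under R 4.3.3 (filterByExpr, TMM, quasi-likelihood test; prior count 2 for log2 CPM). Both edgeR fits were tested on simulated data. Intervals and limits (3 counts) cover counting error alone. Alternatives were DESeq2 1.42.0 and its size factors, library totals, no low-count filter, rRNA-like genes kept, the replicate number as a factor and leaving out each library. Positions came from GENCODE M21, and promoter sequences and nested rows from RefSeq GRCm38.p6.

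The RNAs and lists were chosen with earlier results of these data known. The rule named all 10 RNAs, nested rows with at least 10 counts, and, from each list, genes past the threshold in either edgeR fit and the 2 with the highest mean log2 CPM; 1 such gene is not reported here. Similar patterns were sought for Malat1, Meg3 and Gas5 among genes whose mean log2 CPM was 4 or more. Cdkn1c, Phlda2, Slc22a18, Tssc4, Nap1l4, Igf2, Dlk1, Rtl1, Dio3, Kcnq1, Begain, Wdr25 and Ppp2r5c were named for their position after their values were seen. Map2, Dcx, Rbfox3, Syt1, Nefl, Nefm, Sox2, Jag1, Pax2, Pax8, Gata3 and Isl1 were likewise named as markers after their values were seen. Snhg14 was also named after its values were seen.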

Additional observations from a re-analysis of the deposited data

How the results depend on the processing

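With group alone, 0 genes and 0 of the 5 tested RNAs were called under DESeq2 size factors, library totals, no low-count filter, rRNA-like genes kept, DESeq2 and each library left out (0 to 0), which says nothing of stability. The labels do not say that equal numbers share a culture; deviations from the group means correlated at 0.737 across genes between proliferating 1 and neuron 1. With the replicate block, 87 genes (58 higher, 29 lower) and 1 RNA, Miat, were called. With block and DESeq2 size factors 32 genes were called, all 32 among the 87, and 0 RNAs; with block and library totals 55 genes, all 55 among the 87, and 1 RNA, Miat again (-2.94, adjusted p = 0.0457 in edgeR). Both of these were chosen after seeing the data. Kcnq1ot1 kept its direction in 12 of 12 alternatives (0.66 to 3.15, adjusted p 0.0913 to 1 in edgeR or DESeq2); the other 4 RNAs did so in 11 of 12. The reversals were Malat1 (-0.98) and Gas5 (-0.30) without neuron 2, and Neat1 (1.25) and Miat (0.29) without proliferating 1. With libraries left out, the ranges were -0.98 to 1.04 for Malat1, -1.83 to 1.25 for Neat1, -4.60 to 0.29 for Miat and -0.30 to 2.11 for Gas5; the cause was not tested. The median of all genes was 0.47 without the low-count filter, against -0.03. Depth limits Snhg11 and, within number 2, H19 and Miat.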
